A study of Mus musculus with 39 samples.

Results

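The gubernaculum of 8-day-old mice (P8) was compared between INSL3-KI and INSL3-KO animals by RNA sequencing. The comparison takes 6 of the 39 libraries of the series, 3 of each genotype, chosen by their labels. INSL3-KI mice carried a cDNA of minke whale INSL3 placed at the mouse Insl3 locus on a C57BL/6J background, were homozygous, and had lost the neomycin cassette through Cre. INSL3-KO mice lacked functional mouse Insl3, and the sources used here do not give the deleted part of the gene. The 3 WT P8 gubernaculum libraries are given beside them as a description. The labels call the libraries of a group biological replicates, and how many animals went into each was not given. INSL3-KI and WT counts stand in the first of the series' count tables and INSL3-KO counts in the second, so that genotype and table cannot be told apart in this comparison.

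The gubernaculum is the ligament that joins the fetal testis to the inguinal region and draws it down. Its outer part holds striated muscle that forms the cremaster, around a core of mesenchyme. INSL3, a peptide hormone of the insulin and relaxin family, is made by Leydig cells and acts through RXFP2, a receptor coupled to G proteins and cAMP, and mice without either molecule have testes that stay in the abdomen. The comparison asks whether a gubernaculum that developed with the whale hormone differs from one that developed without INSL3.

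The hormone sequences show what separates the knock-in from the animal's own gene. The last 84 bases of each coding sequence are printed 5′ to 3′, bases 286 to 369 of mouse Insl3 and bases 319 to 402 of minke whale INSL3, with capitals at the positions where they differ.
mouse Insl3: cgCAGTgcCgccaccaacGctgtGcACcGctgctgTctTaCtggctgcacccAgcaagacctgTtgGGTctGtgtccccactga
minke whale INSL3: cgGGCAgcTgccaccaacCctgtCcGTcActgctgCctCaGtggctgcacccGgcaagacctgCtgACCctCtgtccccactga
Within this stretch 65 of 84 bases (77.4%) were identical, and over the aligned coding sequences 264 of 369 bases (71.5%) were.

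Insl3 (ENSMUSG00000079019, GRCm38 chr8:71689214-71690575, plus strand) was counted 0 times in each of the 6 gubernaculum libraries, and 87, 25 and 29 times in the WT ones. A count of 0 in the gubernaculum does not check the genotype, since Leydig cells lie in the testis. In P8 testis the mouse gene had 33, 15 and 26 counts in INSL3-KI, 906, 804 and 613 counts in INSL3-KO and 2922, 3524 and 2722 counts in WT. The INSL3-KO testis libraries thus held mouse Insl3 reads below the WT level and above that of INSL3-KI. Where these reads lie relative to the deletion was not given, so they do not check the label.

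Each INSL3-KI library held 29861447 to 34142846 counted reads, each INSL3-KO library 39334842 to 45260372 and each WT library 35734365 to 37707231. Levels are given as CPM, the read count relative to library size, scaled by the TMM method over the 9 libraries, and 3 counts are worth at most 0.1 CPM. RNA of other tissues differed between the groups. The 17 hepatocyte genes took 1.47%, 0.521% and 0.053% of the counts in INSL3-KO replicates 1, 2 and 3, and at most 0.0278% in any INSL3-KI or WT library. The mitochondrially encoded transcripts took 10.1% to 11.1% in INSL3-KO, 4.4% to 4.79% in INSL3-KI and 5.07% to 5.79% in WT. Transcripts of epididymal epithelium summed to 1648 to 3576 CPM in INSL3-KI and 2009 to 2144 CPM in INSL3-KO, against 2.76 to 4.02 CPM in WT. Both mutant groups therefore held epididymal RNA that the WT libraries had at very low levels.

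**Figure D1:**
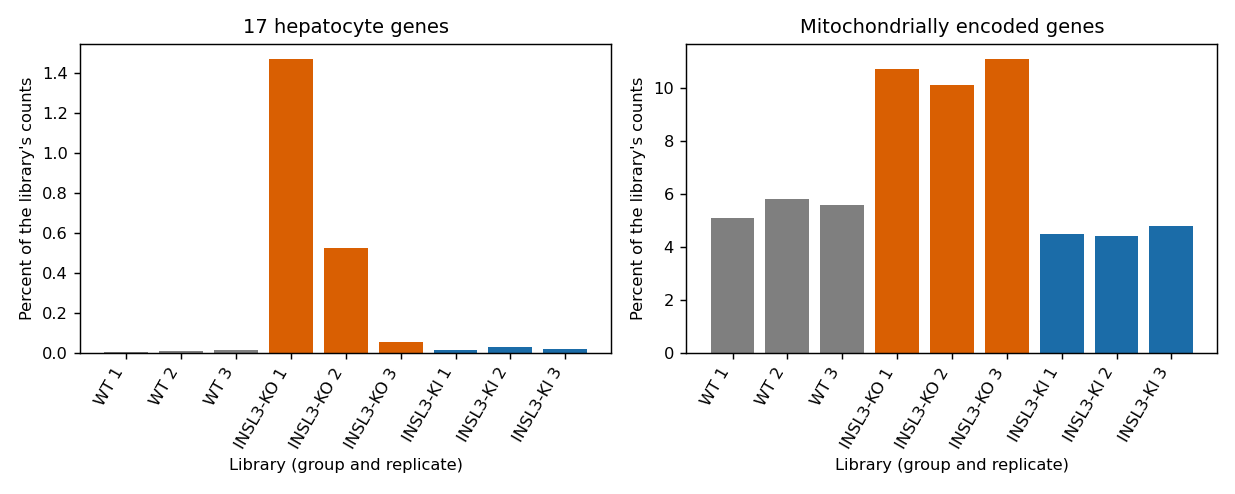
Percent of each library's counts (vertical axes, starting at 0) from 17 hepatocyte genes (left) and from the mitochondrially encoded genes (right), 1 bar per P8 gubernaculum library. Hepatocyte genes reached 1.47% in INSL3-KO replicate 1, and the mitochondrial share was 10.1% or more in each INSL3-KO library.

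Across 15642 genes tested, INSL3-KI had lower levels of 1650 (10.5%) and higher levels of 1865 (11.9%). Calls needed 2-fold or more between the groups and an adjusted p under 0.01 in edgeR's quasi-likelihood test, with Benjamini-Hochberg adjustment over every gene tested. The median log2 fold change, INSL3-KI minus INSL3-KO, was -0.01. The groups did not overlap in 72.2% of the genes tested, and in all 3515 genes called.

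INSL3-KI expressed striated muscle genes at a fraction of the INSL3-KO level, and WT stood above both. Of 142 genes tested in the 6 lists of skeletal muscle biology, 113 were called lower and 4 higher, beside the 10.5% and 11.9% of all genes. The median log2 fold change of the 142 genes was -4.42, and leaving out INSL3-KO replicates 1 and 2 kept 17 of 22 thick filament and 34 of 40 thin filament and Z-disc genes called lower. In 112 of them (78.9%) each WT library lay above each INSL3-KO library and each INSL3-KO library above each INSL3-KI library, an order that 7.38% of all genes tested had. The median gene stood at 22.7% of its WT level in INSL3-KO and at 0.966% in INSL3-KI. In bulk samples, fewer cells of a type and less RNA per cell cannot be told apart.

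Transcription factors that set the skeletal muscle fate were near or at 0 counts in INSL3-KI. Myog (ENSMUSG00000026459, GRCm38 chr1:134289989-134292548, plus strand), which drives the fusion and differentiation of myoblasts, was at 0.105, 0 and 0.0909 CPM in INSL3-KI, at 56.2, 49.7 and 50.5 CPM in INSL3-KO and at 472, 366 and 400 CPM in WT. The 3 groups did not overlap, and the log2 fold change was -9.54 ± 0.34 (SE, n = 3 per group, edgeR adjusted p = 3.5e-06). Myod1, the factor that commits cells to the muscle lineage, was at 0.105, 0 and 0 CPM in INSL3-KI, 24.1, 23.3 and 22.1 CPM in INSL3-KO, and 122, 98.8 and 111 CPM in WT. Its log2 fold change was -9.13 ± 0.53 (edgeR adjusted p = 1.9e-05).

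Myf5, which acts earlier in the same lineage, was at 0.158, 0 and 0.121 CPM in INSL3-KI, 21.1, 19.9 and 24.9 CPM in INSL3-KO and 56.9, 36.3 and 33.7 CPM in WT (log2 fold change -7.8 ± 0.49). Myf6, a factor of the same family that acts in maturing fibres, had no count in any INSL3-KI library and stood at 55.9, 56.3 and 61.3 CPM in INSL3-KO. Against a floor of 3 counts per library it was at least 673-fold lower. Pax7, which marks satellite cells, the stem cells of muscle, was also at 0 in the 3 INSL3-KI libraries and at 6.12, 6.68 and 6.58 CPM in INSL3-KO, at least 75.1-fold lower. Its WT level, 46.2, 52.9 and 52.7 CPM, was above both mutants. Of the 23 myogenic regulators tested, 14 were lower and 1 was higher, with a median log2 fold change of -2.94. The higher one was Eya4, a transcriptional coactivator, at 17.1, 10.9 and 16 CPM in INSL3-KI and 4.98, 4.69 and 4.83 CPM in INSL3-KO (log2 fold change 1.6 ± 0.19, edgeR adjusted p = 0.00035, but 0.018 without INSL3-KO replicates 1 and 2), and it too was below the 62 to 80.6 CPM of WT.

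Myosin genes of the thick filament showed the same order of groups. Myh3 (GRCm38 chr11:67078300-67102291, plus strand), the embryonic heavy chain, was at 0.685, 0 and 0.0909 CPM in INSL3-KI, 70.8, 78.7 and 73 CPM in INSL3-KO and 4103, 3720 and 4084 CPM in WT (log2 fold change -8.07 ± 0.61, edgeR adjusted p = 4.9e-05). Myh8, the perinatal heavy chain, was at 7.29, 1.94 and 2.55 CPM in INSL3-KI, 669, 719 and 675 CPM in INSL3-KO and 7226, 11051 and 10382 CPM in WT (log2 fold change -7.44 ± 0.54, edgeR adjusted p = 4.1e-05). Thus INSL3-KO stood far below WT for both developmental myosins, and INSL3-KI lower again. Myl1, the fast fibre alkali light chain, was closer to WT in INSL3-KO, at 1661, 1829 and 1804 CPM against 4231, 4088 and 3654 CPM in WT, and was at 8.66, 0.792 and 1.91 CPM in INSL3-KI (log2 fold change -8.84 ± 0.9).

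For Myh4, the heavy chain of the fastest fibres, the difference was -2.69 ± 1.34 (log2) and was not called (edgeR adjusted p = 0.12). In the thick filament list 19 of 22 genes were lower and 0 were higher, with a median of -5.71. Summed over the list, levels were 283 to 348 CPM in INSL3-KI, 4370 to 4822 CPM in INSL3-KO and 25841 to 30878 CPM in WT. INSL3-KI replicate 1 carried the highest INSL3-KI values of Myh3 and Myh8, and the list's median was -7.14 without it.

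Thin filament and Z-disc genes were lower in 34 of 40 cases and higher in 0, with a median log2 fold change of -5.56. Actc1, the cardiac actin that fetal skeletal muscle also uses, was at 1.66, 0.587 and 2.21 CPM in INSL3-KI, 289, 303 and 323 CPM in INSL3-KO and 5823, 3342 and 3401 CPM in WT (log2 fold change -7.68 ± 0.4, edgeR adjusted p = 1.2e-05). Acta1, the actin of mature skeletal muscle, kept more signal than Actc1. It was at 696, 950 and 1285 CPM in INSL3-KI, 4382, 4659 and 4780 CPM in INSL3-KO and 17690, 15674 and 16294 CPM in WT (log2 fold change -2.24 ± 0.21, edgeR adjusted p = 0.00012). Tnnt3, the fast troponin T, was at 6.87, 1.53 and 0.546 CPM in INSL3-KI and 552, 617 and 576 CPM in INSL3-KO (log2 fold change -7.58 ± 0.84). Neither actin nor troponin overlapped between the genotypes. Csrp3, a Z-disc protein, had at most 0.0909 CPM in INSL3-KI and 105, 113 and 110 CPM in INSL3-KO, at least 1271-fold lower. Among the genes of the 6 striated muscle lists not called were Des, Tpm1, Tpm2, Mef2a, Mef2c and Mef2d. Chrne, Cacnb1, Myom1, Hspb7, Art3 and Myh6 were also not called, and the reason was not tested.

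**Figure D2:**
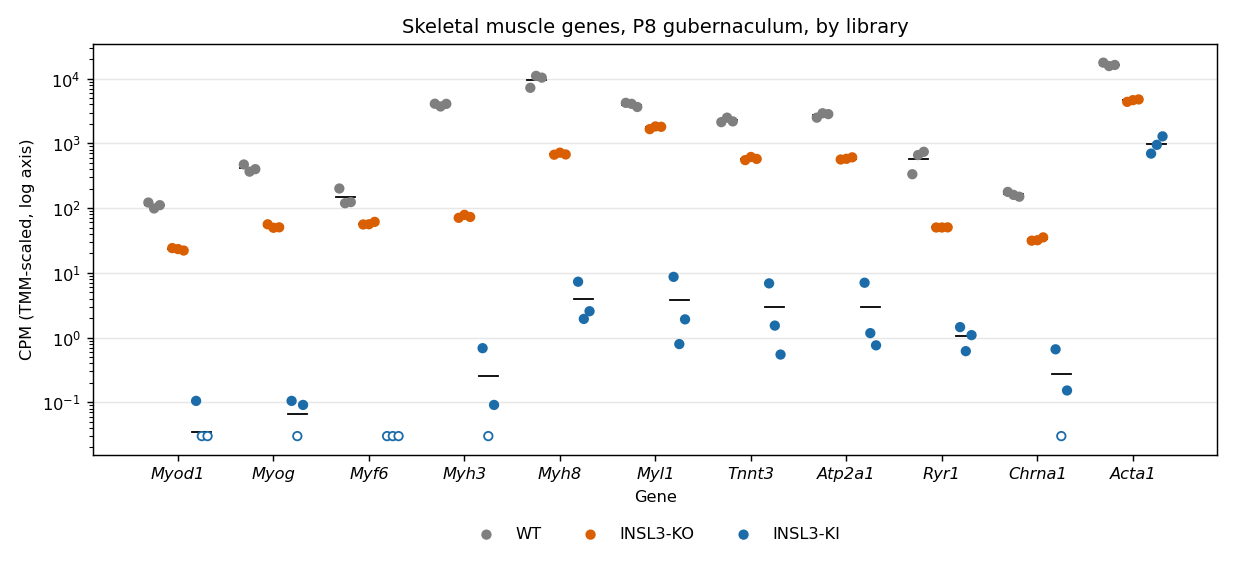
Levels of 11 skeletal muscle genes (CPM, log axis) in the 9 P8 gubernaculum libraries, with a dot per library, a dash at the group mean and open circles for a value of 0, drawn at 0.03. Each INSL3-KI dot lies below each INSL3-KO dot of its gene, and each INSL3-KO dot below each WT dot.

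The machinery that links excitation to contraction fell with the filaments. Ryr1, the calcium release channel of skeletal muscle, was at 1.45, 0.616 and 1.09 CPM in INSL3-KI, 50.2, 50.2 and 50.4 CPM in INSL3-KO and 334, 661 and 742 CPM in WT (log2 fold change -5.56 ± 0.26, edgeR adjusted p = 8.8e-06). Atp2a1, the pump that returns calcium to the store in fast fibres, was at 7.03, 1.17 and 0.758 CPM in INSL3-KI and 564, 578 and 609 CPM in INSL3-KO (log2 fold change -7.58 ± 0.83), with WT at 2498 to 2923 CPM. Of 23 such genes 19 were lower and 2 were higher. The higher genes were Jph2, which ties the surface membrane to the calcium store, and Ryr3, a release channel also found outside skeletal muscle, whose log2 fold change of 1.39 became 0.89 with gene length and GC content taken out. Jph2 was at 224, 319 and 260 CPM in INSL3-KI and at 61, 66.4 and 58.6 CPM in INSL3-KO (log2 fold change 2.11 ± 0.13), with WT at 279, 324 and 335 CPM.

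At the neuromuscular junction 9 of 12 genes were lower and 1 was higher, or 6 and 0 without INSL3-KO replicates 1 and 2. Chrna1, a subunit of the muscle acetylcholine receptor, was at 0.658, 0 and 0.152 CPM in INSL3-KI against 31.4, 31.9 and 35.3 CPM in INSL3-KO (log2 fold change -6.85 ± 0.68, edgeR adjusted p = 0.00015). Chrng, the fetal subunit, was at 0 in INSL3-KI and at 4.44, 3.91 and 4.48 CPM in INSL3-KO, at least 49.7-fold lower. The higher gene was Nrg1, a nerve-derived growth factor, at 1.42 to 1.91 CPM against 0.433 to 0.763 CPM, a call lost on leaving out any 1 library except INSL3-KO replicate 2.

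Muscle energy metabolism genes were lower in 18 of 22 cases and higher in 0. Ckm, the muscle creatine kinase, was at 17.1, 50.3 and 29.4 CPM in INSL3-KI, 551, 573 and 551 CPM in INSL3-KO and 3291, 3215 and 2676 CPM in WT (log2 fold change -4.11 ± 0.38). Mstn, which encodes myostatin, an inhibitor of muscle growth made by muscle itself, was at no more than 0.0909 CPM in INSL3-KI, at 71.8, 72.9 and 83.9 CPM in INSL3-KO and at 98, 115 and 103 CPM in WT, at least 886-fold lower in INSL3-KI. For Mstn the INSL3-KO level was closer to WT than for the myosins.

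The promoters of these genes are shown because muscle genes are known to share binding motifs of the factors MEF2 and SRF. Both motifs were searched on both strands of the RefSeq promoters (GRCm38.p6) with 10 letters each, the MEF2 motif and the CArG motif of SRF, and no run of 10 letters can match both. Printed 5′ to 3′ on the gene's strand with the match in capitals are Myh8 (chr11:67276874-67277173, plus strand, a MEF2 match 99 bases before the start) and Actc1 (chr2:114052826-114053125, minus strand, a CArG match 47 bases before the start).
Myh8: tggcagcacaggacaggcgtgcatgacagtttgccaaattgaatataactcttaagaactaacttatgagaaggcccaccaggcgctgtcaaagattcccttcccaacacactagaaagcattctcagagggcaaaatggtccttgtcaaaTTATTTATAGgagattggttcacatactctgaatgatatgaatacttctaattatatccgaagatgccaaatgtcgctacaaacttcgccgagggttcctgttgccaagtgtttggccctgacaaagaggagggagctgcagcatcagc
Actc1: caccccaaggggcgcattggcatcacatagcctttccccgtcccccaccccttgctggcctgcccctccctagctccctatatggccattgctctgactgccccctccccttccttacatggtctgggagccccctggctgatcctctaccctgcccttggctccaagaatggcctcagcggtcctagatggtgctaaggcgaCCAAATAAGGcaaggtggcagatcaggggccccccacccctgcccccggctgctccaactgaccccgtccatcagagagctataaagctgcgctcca
A MEF2 match lay in 14 of the 101 striated muscle promoters found (13.9%) and in 224 of the 12099 promoters found for all genes tested (1.85%). A CArG match lay in 6 of the 101 (5.94%) and in 166 of the 12099 (1.37%). The 14 smooth muscle promoters held 1 MEF2 match and 0 CArG matches within these windows. A match is a description of the letters and not of binding.

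Smooth muscle genes went the other way. Of 19 tested, 10 were called higher in INSL3-KI and 0 lower, beside 11.9% and 10.5% of all genes, and the median log2 fold change was 1.19. Summed levels were 20558 to 25893 CPM in INSL3-KI, 10583 to 11230 CPM in INSL3-KO and 2663 to 2956 CPM in WT. In 10 of the 19 genes (52.6%) every INSL3-KI library lay above every INSL3-KO library and every INSL3-KO library above every WT library, an order found in 7.71% of all genes. Without INSL3-KO replicates 1 and 2, which held most of the hepatocyte RNA, 7 of the 19 were called higher and 0 lower. The median gene stood at 254% of WT in INSL3-KO and at 773% in INSL3-KI.

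Myh11 (GRCm38 chr16:14194535-14291372, minus strand), the smooth muscle myosin heavy chain, was at 4310, 6231 and 4975 CPM in INSL3-KI, 1054, 1135 and 1096 CPM in INSL3-KO and 12, 31.6 and 45.6 CPM in WT (log2 fold change 2.24 ± 0.14, edgeR adjusted p = 2.2e-05). Myocd, the coactivator of SRF that directs the smooth muscle program, was at 26.5, 48.2 and 34.9 CPM in INSL3-KI and 3.33, 2.77 and 3.58 CPM in INSL3-KO (log2 fold change 3.5 ± 0.24, edgeR adjusted p = 3.6e-05). For both genes the lowest INSL3-KI library was well above the highest INSL3-KO library. Cnn1, an actin-binding protein of smooth muscle, was at 1211, 1562 and 1507 CPM against 400, 414 and 396 CPM, and at 1.46 to 4.19 CPM in WT (log2 fold change 1.82 ± 0.1, edgeR adjusted p = 1.7e-05).

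Acta2, the smooth muscle actin, was at 7208, 8060 and 8224 CPM in INSL3-KI and 4117, 4234 and 4394 CPM in INSL3-KO. The groups did not overlap and the adjusted p was 7.3e-05 in edgeR, but its log2 fold change of 0.88 ± 0.07 lay under the 2-fold threshold. Tagln was likewise not called at a log2 fold change of 0.97.

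In the actin cytoskeleton list 12 of 55 genes were higher and 2 were lower, beside 11.9% and 10.5% of all genes, with a median log2 fold change of 0.09. Among the higher genes were Actn1, Actn4, Diaph1, Flna, Flnc, Gsn, Myh9, Myl9, Pxn, Tln1 and Vcl. Vcl, the adhesion protein vinculin, was at 426, 589 and 490 CPM in INSL3-KI and 93.4, 55.2 and 53.7 CPM in INSL3-KO (log2 fold change 2.9 ± 0.25). Flna, a filamin that crosslinks actin, was at 2961, 3652 and 3192 CPM against 870, 900 and 917 CPM (log2 fold change 1.87 ± 0.09). Smooth muscle uses both proteins, and fibroblasts do too. With gene length and GC content taken out, 4 of the 55 genes were higher and the median was -0.02. Gsn stood at the threshold and lost its call under several settings.

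**Figure D3:**
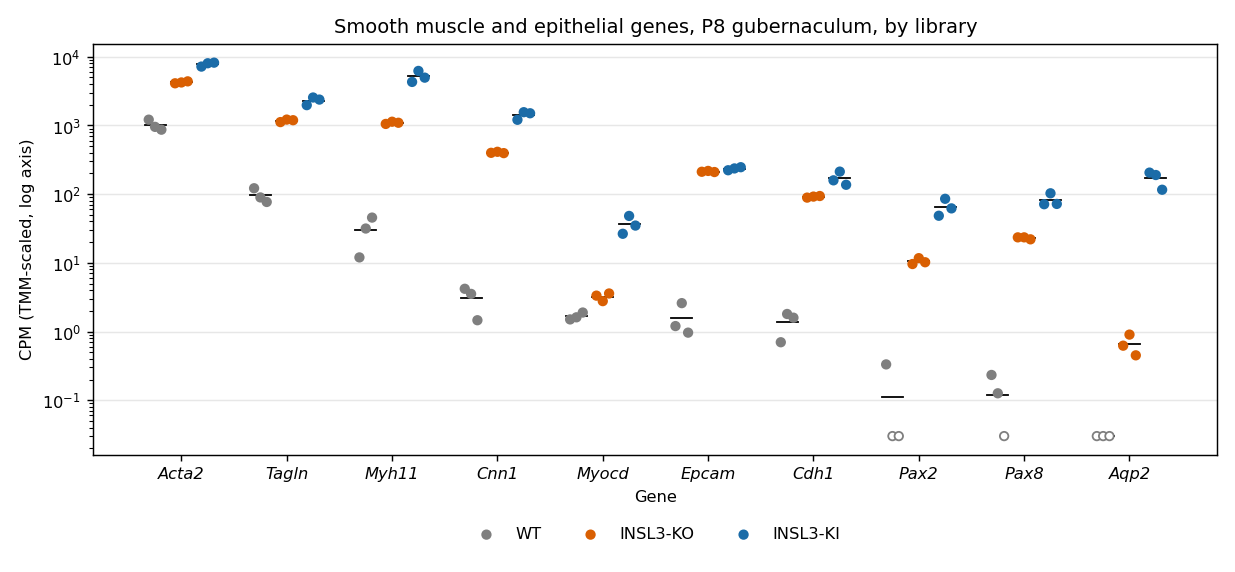
Levels of 5 smooth muscle and 5 epithelial genes (CPM, log axis) in the 9 P8 gubernaculum libraries, with a dot per library, a dash at the group mean and open circles for a value of 0, drawn at 0.03. INSL3-KI lies above INSL3-KO for each gene plotted, by the smallest margin for Epcam, and WT lies below both for each of them.

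Rxfp2, the receptor of INSL3 (GRCm38 chr5:150018675-150082184, plus strand), was lower in INSL3-KI. It was at 1.61, 1.55 and 2.03 CPM in INSL3-KI, 11.2, 10 and 32.9 CPM in INSL3-KO and 41.2, 51.9 and 46.6 CPM in WT. INSL3-KO replicate 3 stood well above the other two of its group, and each INSL3-KO library stood above each INSL3-KI library. The log2 fold change was -3.38 ± 0.51 (edgeR adjusted p = 0.0011). In testis, where Rxfp2 had at most 31 counts in either genotype, the contrast was -1.39, and the difference of -1.92 between tissues was not called (edgeR adjusted p = 0.28).

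Downstream of the receptor, genes of the cAMP, PKA and CREB pathway were called in both directions. Of 47 receptor and pathway genes tested, 4 were lower and 12 were higher, beside 10.5% and 11.9% of all genes, with a median log2 fold change of -0.16, and 5 were higher and 6 lower with gene length and GC content taken out. Gnas, the stimulatory G protein subunit, and Creb1, the transcription factor that PKA phosphorylates, were not called at -0.48 and -0.28. Adcy5, an adenylyl cyclase, was at 164, 263 and 189 CPM in INSL3-KI and 54.7, 54.5 and 52 CPM in INSL3-KO (log2 fold change 1.94 ± 0.17, or 0.89 with gene length and GC content taken out). Pkia, an inhibitor of PKA that muscle expresses, was at 42.3, 21.4 and 34 CPM against 188, 181 and 206 CPM (log2 fold change -2.55 ± 0.24).

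Notch pathway genes were higher in 10 of 48 cases and lower in 2, with a median log2 fold change of 0.49. The background was 11.9% higher and 10.5% lower. Notch3, the receptor of pericytes and vascular smooth muscle, was at 113, 108 and 109 CPM in INSL3-KI and 34.7, 32.5 and 31.4 CPM in INSL3-KO (log2 fold change 1.74 ± 0.06, edgeR adjusted p = 3.9e-06), and at 134 to 249 CPM in WT. Jag2, a ligand, had a log2 fold change of 2.17 ± 0.09, with WT at 62.7 to 64.1 CPM beside 62.6 to 74.5 CPM in INSL3-KI and 13.9 to 15.5 CPM in INSL3-KO. Notch1 was not called, at 0.43 ± 0.09.

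Dlk1, a noncanonical ligand of fetal mesenchyme and muscle, was at 244, 194 and 213 CPM in INSL3-KI and 707, 755 and 697 CPM in INSL3-KO (log2 fold change -1.73 ± 0.1), with WT at 4188 to 5795 CPM. In P8 testis Notch3 also differed, by 1.32 on the log2 scale, and the median of the Notch list there was 0.16. With gene length and GC content taken out of the counts, 2 Notch genes were called higher in place of 10, beside 1104 of all 15627 genes. The log2 fold change of Notch3 was then 0.67. Jag2 was called higher in testis too, by 1.05 (edgeR adjusted p = 0.00037). As a difference between the tissues, Jag2 stood at 1.15 ± 0.13 (edgeR adjusted p = 0.00015) and Notch3 was not called at 0.45 ± 0.27 (edgeR adjusted p = 0.23). For that difference 6 of 50 Notch genes were higher and 0 lower, beside 715 and 514 of all 16742 genes. Over Notch genes of equal implied length in both tables, 7 of 40 were higher and 1 lower, beside 1286 and 1195 of all 11905.

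AMPK pathway genes were called lower in 8 of 65 cases and higher in 8, near the background in both directions, with a median of 0.13, which turned to -0.12 with gene length and GC content taken out. The catalytic subunits Prkaa1 and Prkaa2 were not called, at -0.42 and -0.59. Prkag3, the regulatory subunit of skeletal muscle, was at 0.579, 0.557 and 0.576 CPM in INSL3-KI and 4.71, 7.45 and 4.95 CPM in INSL3-KO (log2 fold change -3.31 ± 0.27). Cpt1b, the muscle enzyme that admits fatty acids to mitochondria, was lower by -4.18 ± 0.41 (log2). Among the higher genes were Igf1r, the receptor of IGF1, at 4.26 ± 0.13 and Irs2, an insulin receptor substrate, at 5.64 ± 0.31, and Irs2 also parted the tables in testis as described further on. Igf1r was called higher in P8 testis as well, by 1.95 (edgeR adjusted p = 0.00019).

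Other signalling lists are read beside the background of 11.9% higher and 10.5% lower. Of 52 Wnt genes 12 were higher and 3 lower, with Apcdd1, a Wnt inhibitor, at 203 to 275 CPM in INSL3-KI against 48.6 to 51.9 CPM in INSL3-KO (log2 fold change 2.29 ± 0.13), and Frzb, a secreted inhibitor, lower by -2.38 ± 0.2. The Wnt median of 0.53 became 0.06, and the counts 8 higher and 5 lower, with gene length and GC content taken out. Of 51 TGF-beta and BMP genes 8 were higher and 2 lower, the latter including Mstn. Of 17 Hedgehog genes 3 were higher and 0 lower, or 1 and 2 with gene length and GC content taken out, where the median turned from 0.34 to -0.19. Gli1, a transcriptional target of the pathway, was at 48.1, 62.5 and 53.3 CPM against 18.9, 19.7 and 17.7 CPM (log2 fold change 1.54 ± 0.11, or 0.68 with gene length and GC content taken out), while the ligand Shh was not called at 0.07.

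Of 32 IGF and FGF genes 8 were lower and 2 higher, against the same background. Their median of -0.27 was -0.41 without INSL3-KO replicates 1 and 2, which does not show that the calls hold with a lone INSL3-KO library. Igf2, a fetal growth factor that muscle and mesenchyme make, was at 245, 153 and 225 CPM in INSL3-KI, 951, 1035 and 1032 CPM in INSL3-KO and 7311, 7669 and 8050 CPM in WT (log2 fold change -2.27 ± 0.18). Esr1, an oestrogen receptor, was not called at -0.24 ± 0.13 (log2). Hox genes were lower in 9 of 34 cases and higher in 9, with a median of 0.23 with or without INSL3-KO replicates 1 and 2. Hoxa11 was at 149, 130 and 138 CPM in INSL3-KI against 44.3, 51.2 and 42.4 CPM in INSL3-KO (log2 fold change 1.6 ± 0.1), and Hoxa10, whose loss in mice impairs testis descent, was not called at 0.21 ± 0.1.

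**Figure D4:**
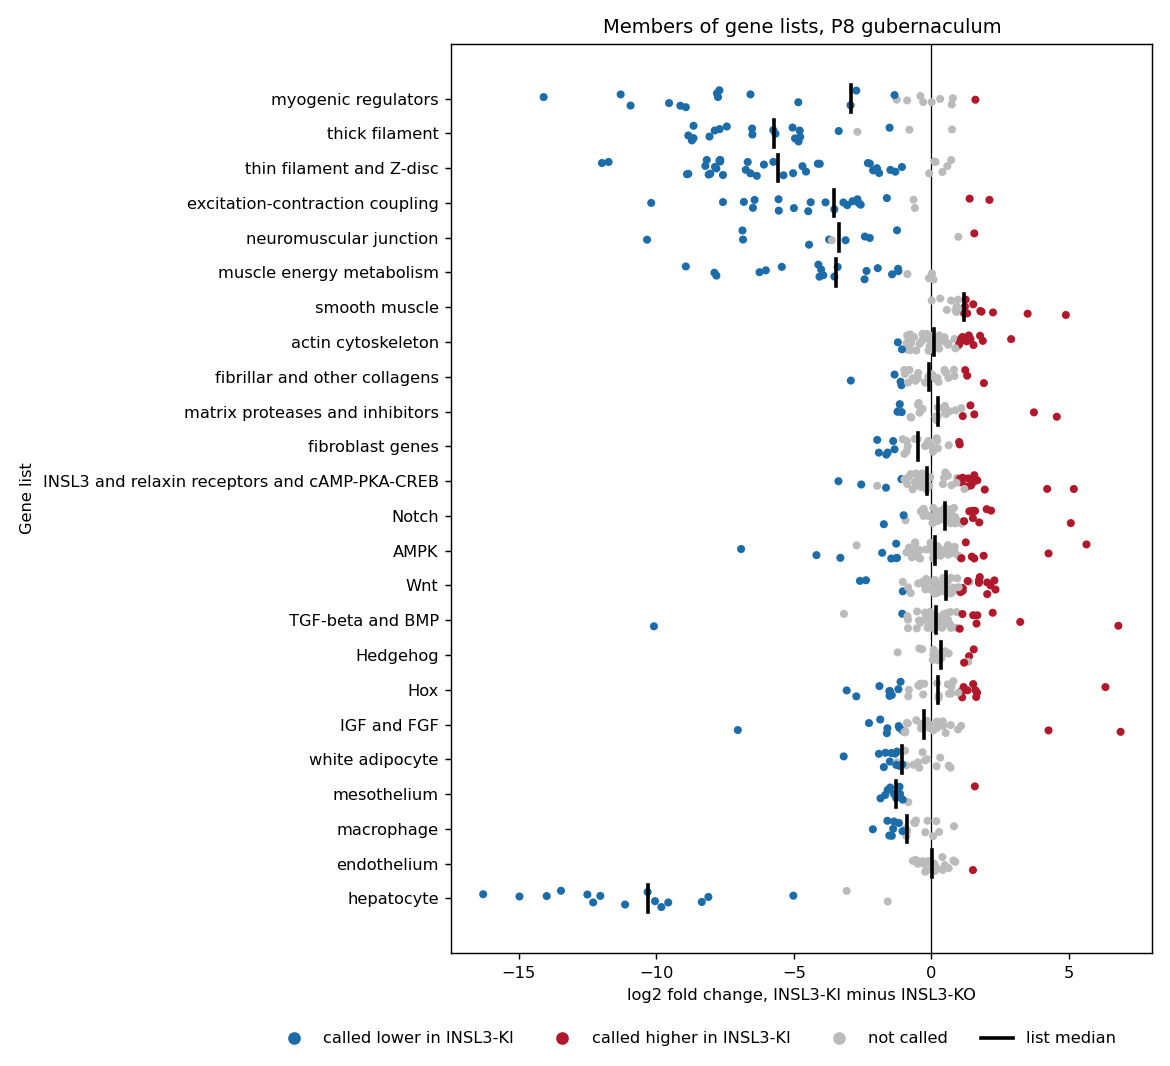
The log2 fold change, INSL3-KI minus INSL3-KO, of each tested gene (dot) in the gene lists named on the vertical axis, in P8 gubernaculum, with a bar at each list's median and colour by call. The medians of the 6 striated muscle lists lie between -5.71 and -2.94, that of smooth muscle at 1.19, and those of Notch and AMPK at 0.49 and 0.13.

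Matrix and mesenchyme genes divided. Of 28 collagens 4 were lower and 3 higher, and Col1a1, Col1a2 and Col3a1, the main fibrillar chains, were not called at 0.48, -0.49 and -0.58. These collagen counts lay near the background of 10.5% and 11.9%, and they became 10 lower and 1 higher, with a median of -0.8 in place of -0.07, with gene length and GC content taken out, and 1 lower and 5 higher when scaled by library size alone. Mmp14, a membrane protease that cuts collagen, was at 303, 243 and 278 CPM in INSL3-KI, 13.6, 19.4 and 29.1 CPM in INSL3-KO and 380, 400 and 420 CPM in WT (log2 fold change 3.73 ± 0.28). INSL3-KI stood near WT and INSL3-KO far below, a pattern shared by Adamts12, an ADAMTS protease, at 4.56 ± 0.09. Adamts12, whose implied length differed between the tables, was also called higher in P8 testis, by 2.35 (edgeR adjusted p = 0.00096), whereas Mmp14 was not called there at 0.36. INSL3-KI and WT are also the libraries of the first table. Of the 1865 genes called higher, the WT mean was nearer INSL3-KI in 1081 and nearer INSL3-KO in 784. Of the 1650 called lower, it was nearer INSL3-KO in 796 and nearer INSL3-KI in 854.

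Markers of further cell types moved as follows, beside 10.5% lower and 11.9% higher among all genes. White adipocyte genes were lower in 12 of 25 cases and higher in 0, with sums of 4764 to 6787 CPM in INSL3-KI, 12782 to 13501 CPM in INSL3-KO and 2396 to 3026 CPM in WT. Adipoq, the fat cell hormone adiponectin, was at 86.6, 86.4 and 124 CPM in INSL3-KI, 300, 321 and 320 CPM in INSL3-KO and about 0.2 CPM in WT (log2 fold change -1.67 ± 0.15), whereas Plin1, which coats lipid droplets, was not called at 0.63. Mesothelium genes were lower in 10 of 12 cases and higher in 1, Krt19. Their sums were near even, at 715 to 746 CPM in INSL3-KI and 698 to 738 CPM in INSL3-KO, with 304 to 862 CPM in WT. Macrophage genes were lower in 8 of 21 cases and higher in 0. The medians of the white adipocyte, mesothelium and macrophage lists were -1.06, -1.27 and -0.9. They were -0.97, -1.41 and -0.8 without INSL3-KO replicates 1 and 2, and these medians do not show that the calls hold there. Endothelial genes were lower in 0 of 23 and higher in 1.

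Among the epithelial lists, Wolffian and other simple epithelium genes were higher in 8 of 26 cases and lower in 3, beside 11.9% and 10.5% of all genes. The median of 0.7 was 0.72 without INSL3-KO replicates 1 and 2. Aqp2, a water channel of collecting duct and vas deferens, was at 206, 190 and 116 CPM in INSL3-KI, 0.622, 0.902 and 0.45 CPM in INSL3-KO and 0 in WT (log2 fold change 8.01 ± 0.34, edgeR adjusted p = 6.6e-06). Pax2, a transcription factor of the Wolffian duct, was at 48.5, 85.6 and 62.1 CPM against 9.61, 11.7 and 10.2 CPM (log2 fold change 2.64 ± 0.21). Pax8, a related factor, was at 71.4, 103 and 72.1 CPM against 23.5, 23.5 and 22 CPM (log2 fold change 1.84 ± 0.15), and Cdh1, the epithelial cadherin, was not called at 0.89 ± 0.15. Epcam, which most simple epithelia carry, was near even at 223, 237 and 247 CPM against 212, 218 and 210 CPM (log2 fold change 0.14, not called), with at most 2.59 CPM in WT. The smooth muscle and epithelial genes thus both stood above WT in the mutants, and the part of tissue taken with the gubernaculum in the smooth muscle values was not tested.

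Hepatocyte genes were lower in 15 of 17 cases, beside 10.5% of all genes. In each of the 17 INSL3-KO replicate 1 was over 5 times replicate 3. Alb, serum albumin, was at 0.527, 0 and 0.576 CPM in INSL3-KI and at 4651, 921 and 89.3 CPM in INSL3-KO (log2 fold change -12.3 ± 1.92, edgeR adjusted p = 0.0012). The list's count ran from 5 to 16 as single libraries were left out, 5 without INSL3-KI replicate 3 and 16 without INSL3-KO replicate 3. Genes in which INSL3-KO replicate 1 exceeded replicate 3 over 5 times were 264 of 15642 tested (1.69%), 133 of the 1650 called lower (8.06%) and 0 of the 1865 called higher. Among the 12 genes of largest fall that did not part the tables, Mup20, Gc, Saa2, Saa1, Ambp, Ttr, Kng1, Plg, Fga and Cyp3a11 are liver products, and Mup20, a urinary protein, was at 0 in INSL3-KI and at 544, 250 and 9.09 CPM in INSL3-KO. Mup20 lost its call on leaving out any 1 library except INSL3-KO replicate 3. Myf6 was also among the 12. Myog and Myh8 did not have the spread of the liver genes. Myog was at 56.2, 49.7 and 50.5 CPM and Myh8 at 669, 719 and 675 CPM in the same 3 libraries.

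Mitochondrially encoded transcripts were lower in 11 of 13 cases, with mt-Cytb, a subunit of respiratory complex III, at 4082, 4019 and 4273 CPM in INSL3-KI and 16109, 14897 and 15897 CPM in INSL3-KO (log2 fold change -1.92 ± 0.07, or -0.85 with gene length and GC content taken out). WT stood at 5539 to 6372 CPM, near INSL3-KI. Nuclear genes of oxidative phosphorylation were lower in 21 of 48 cases and higher in 0. Of all genes 10.5% were lower and 11.9% higher. With gene length and GC content taken out, 0 of the 13 mitochondrial genes and 1 of the 48 nuclear ones were called lower, beside 1022 of all 15627 genes. Immediate early genes were lower in 6 of 24 and higher in 3, and Fos was at 6.32, 5.66 and 4.45 CPM against 65.7, 63.8 and 67.5 CPM (log2 fold change -3.58 ± 0.13).

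How far these differences move with the count table was examined in testis. Libraries of P8 and P23 testis stand in both tables, with WT of P8 in the first and WT of P23 in the second. A gene was said to part the tables when every testis library of one table lay over 2-fold from every testis library of the other. Since each side held both ages, a table difference smaller than the spread between ages could go unseen. So could one in a gene that testis does not express. Of the genes tested in gubernaculum 78 (0.499%) parted the tables, among them 17 of the genes called lower (1.03%) and 57 of those called higher (3.06%), each the same way as in gubernaculum. Ptp4a1, a phosphatase, was at 0.0527, 0.352 and 6.97 CPM in INSL3-KI and 247, 230 and 248 CPM in INSL3-KO (log2 fold change -6.65), and differed by -6.77 in testis. The first table held 3770, 3426 and 3462 counts of Ptp4a1 under a second identifier, ENSMUSG00000117310, which the other table lacks.

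A wider measure is the same contrast in P8 testis, which shares no library with the gubernaculum but has the same tables on either side. A genotype effect common to the tissues and an effect of the tables cannot be told apart in it. It gave 183 genes lower and 434 higher of 15728 tested. Of the genes called higher in gubernaculum by 16-fold or more and tested in testis, 144 of 168 (85.7%) were also at least 2-fold higher in testis, against 6.93% of all genes tested. Of those called lower by 16-fold or more, 29 of 166 (17.5%) were at least 2-fold lower in testis, against 3.59%. At 4- to 16-fold the shares were 197 of 370 (53.2%) for higher genes and 49 of 212 (23.1%) for lower ones. For changes of 2- to 4-fold the shares were 178 of 1211 (14.7%) for higher genes and 131 of 1035 (12.7%) for lower ones. The implied length was the same in both tables for 76.1% of all genes tested. Among genes called at 16-fold or more, it was the same for 27.3% of higher and 64.9% of lower ones. Between 4- and 16-fold it was the same for 227 of 413 higher and 185 of 251 lower genes. Of the 82 striated muscle list genes called in gubernaculum and tested in testis, 66 lay within 1 log2 unit of 0 in testis. Most genes did so, since 3.59% of all genes tested were at least 2-fold lower in testis and 6.93% at least 2-fold higher. The called muscle genes Myog, Myod1, Myf5, Myf6, Csrp3, Chrna1, Chrng and Mstn were not tested in testis, so this contrast does not cover them. Myh3, at -8.07 in gubernaculum, was at -0.14 in testis, whereas Acta1, at -2.24 in gubernaculum, was at -4.71.

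The 12 genes that rose most without parting the tables were Adnp, Naaladl2, Cep85l, Aqp2, Luzp2, Gemin4, Aqp3, Kcna2, Fbxl7, Zfp626, Cbl and Klf12. Cbl, an E3 ubiquitin ligase that acts on receptor kinases, was at 68, 80.6 and 65 CPM in INSL3-KI, 0.812, 0.624 and 1.07 CPM in INSL3-KO and 45, 70.3 and 73.8 CPM in WT (log2 fold change 6.41 ± 0.2), and differed by 3.55 in testis. Naaladl2, Cep85l, Kcna2, Fbxl7, Zfp626 and Klf12 were also higher in testis, by 2.7 to 6.38 on the log2 scale. The water channel genes behaved otherwise. Aqp2 differed by 0.1 in testis, and Aqp3, at 27.7, 28.8 and 11.3 CPM in INSL3-KI and at most 0.244 CPM in INSL3-KO, was not tested there. Adnp, which encodes a chromatin protein, was at 170, 158 and 159 CPM in INSL3-KI and had 0 counts in each INSL3-KO library, while in testis it differed by 0.06.

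Among the genes that parted the tables, Styx, a pseudophosphatase, was at 71.7, 72.9 and 68.8 CPM in INSL3-KI and 0.487, 0.347 and 0.403 CPM in INSL3-KO (log2 fold change 7.43), with WT at 73 to 87.7 CPM. It was higher by 4.13 in testis. Ccdc85c and Igsf9b were higher by 8.45 and 8.73 in gubernaculum and by 5.17 and 4.14 in testis. Nupl1, a nucleoporin, was lower by -8.19 in gubernaculum and -8.35 in testis, and Lrrc24 by -5.63 and -3.78.

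**Figure D5:**
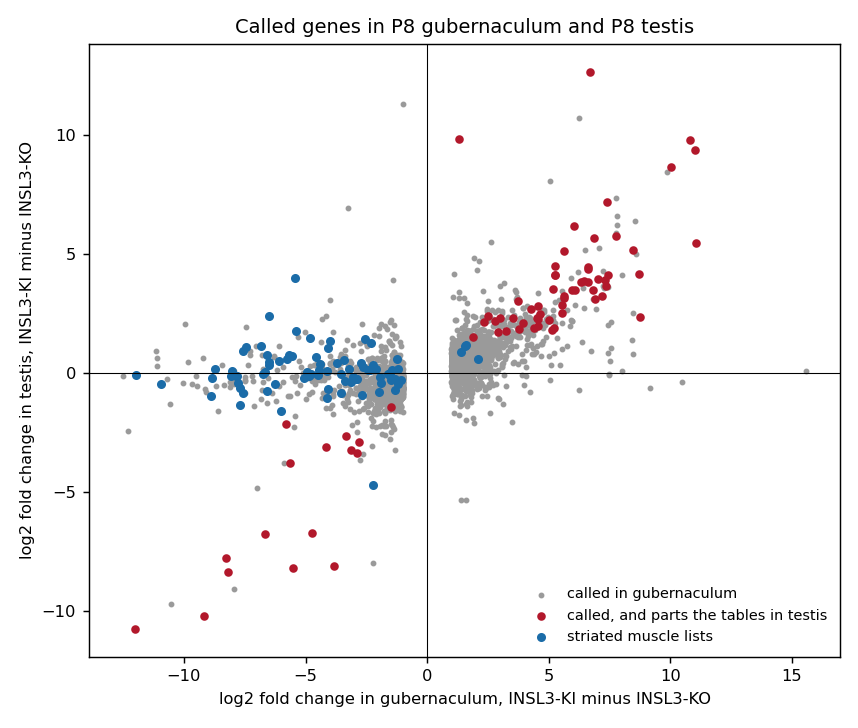
The log2 fold change, INSL3-KI minus INSL3-KO, of genes called in P8 gubernaculum (horizontal axis) and the same contrast in P8 testis (vertical axis), for 3162 genes tested in both. The 82 striated muscle list genes (blue) lie mostly near 0 in testis, the 73 genes that part the tables (red) have the same sign in both tissues, and many strongly higher genes (grey) lie above 0 in both tissues.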

How the data were processed

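RNA was extracted with TRIzol, prepared with the Hieff NGS Ultima Dual-mode mRNA kit and sequenced as paired 150-base reads. The authors aligned reads with HISAT2 to GRCm38 (the build per the submitters' processing notes) and deposited raw counts per gene, beside FPKM, in separate tables. The counter and annotation were not given in the sources used here. Deposited FPKM served only to give each gene's implied length. That length was compared between tables, and it was the gene length taken out in the settings that remove it. The 21561 Ensembl genes in both tables were joined, holding 94.67% to 97.3% of each library's counts. P23 gubernaculum and P40 testis libraries were used only for the implied lengths. Counts were tested with edgeR 4.0.16 in R 4.3.3 (filterByExpr, TMM, quasi-likelihood, Benjamini-Hochberg, adjusted p under 0.01, 2-fold) on the 6 libraries, with DESeq2 1.42.0 as an alternative, after tests on simulated data. Errors are approximate standard errors, the size of the log2 fold change divided by the square root of the quasi-likelihood F statistic. No replicates agreed within counting error, so each counted as 1 sample. Floors of 3 counts cover counting error alone.

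The members and the 46 gene lists were chosen with earlier results of these data known. Named genes were Insl3 and Rxfp2, the first 4 genes of each list, the 3 called genes of largest change per direction in each list, the 12 of largest change per direction with at least 10 CPM in the higher group that did not part the tables, and 3 per direction that did. Genes named outside this rule were chosen after their values were seen. Lists are described by counts and medians, without a set test. Some genes that this rule selects are not reported here.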

Additional observations from a re-analysis of the deposited data

Results flagged for a closer look

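The difference between INSL3-KI and INSL3-KO was itself compared between P8 gubernaculum and P8 testis, as an interaction over 16742 genes. The log2 fold change was lower in gubernaculum than in testis for 514 genes and higher for 715. Of the 89 genes named in the text and tested in both tissues, 49 passed the thresholds for this difference. For Myh3 the difference was -7.9 ± 0.77 (edgeR adjusted p = 6.7e-05).

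Acta1 differed by 2.47 ± 0.57 (edgeR adjusted p = 0.0092), with the contrast at -2.24 in gubernaculum and -4.71 in testis (edgeR adjusted p = 0.0031), where Acta1 was thus also lower in INSL3-KI. Hoxa11 had opposite signs, 1.6 in gubernaculum and -5.34 in testis, a difference of 6.94 ± 0.56 (edgeR adjusted p = 2.1e-05).

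Adnp differed by 15.66 ± 0.38 (edgeR adjusted p = 9.5e-08), a size that the counts do not fix where a group is at 0. Against a floor of 3 counts per library, Adnp was at least 2196-fold higher in the INSL3-KI gubernaculum. It was at 170, 158 and 159 CPM in the INSL3-KI gubernaculum and had 0 counts in each INSL3-KO gubernaculum library, while the INSL3-KO P8 testis libraries of the same table had 10291, 8671 and 8830 counts. Gemin4 had a like pattern, with 2, 4 and 3 counts in INSL3-KO gubernaculum and 1629, 1439 and 1432 in INSL3-KO testis. The cause was not tested.

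Genes outside the comparison also carried signal. Of the 21778 Ensembl genes that the second table alone lists, 2685 had over 3 counts in every INSL3-KO gubernaculum library, together 4.66% to 4.77% of the counts. The largest were the predicted genes Gm10925, with 319808, 349030 and 364867 counts, Gm28437, Gm28661, Gm29216 and Gm28439. H19 came next, with 62827, 76893 and 78947 counts, and Meg3 and Rian were also among them. Their INSL3-KI levels were not analysed here.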

How the results depend on the processing

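The counts of 1650 lower and 1865 higher genes became 1879 and 1946 with DESeq2, 1694 and 1825 with upper-quartile scaling, and 1675 and 1824 without the filter on low counts. Scaling by library size alone shifted the median of all genes to 0.18 and gave 1224 lower and 2491 higher. Adding WT to the fit gave 1654 and 1783, and genes of equal implied length gave 1195 and 1286. Calls fell to 514 and 715 for the difference between tissues (418 and 589 shared), to 1022 and 1104 with GC content and length removed (853 and 973 shared), to 590 and 615 at 4-fold, and to 955 and 1144 without INSL3-KO replicates 1 and 2, an alternative chosen after seeing the data, in which the lone INSL3-KO library is assumed to vary like the others. Leaving out single libraries gave 1327 to 1651 lower and 1659 to 1840 higher. The count of a gene list under any of these settings is to be read beside that setting's own total, which was lower in several of them. A list median that held without INSL3-KO replicates 1 and 2 does not show that the list's calls held.

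The replicate block gave 1550 and 1693. Same-numbered libraries correlated at -0.04, 0.02 and 0.05 in their deviations, so the numbers did not pair them.

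The thick filament median ranged from -7.14 to -5.43 and that of smooth muscle from 1.02 to 1.25 over single libraries left out, and the latter was 1.49 as a difference between tissues. The Notch median was 0.68 by library size, 0.21 as that difference, 0.53 over genes of equal implied length, 0.33 with length removed, 0.18 with GC content and length removed, 0.43 to 0.51 over single libraries and 0.44 without INSL3-KO replicates 1 and 2. The AMPK median was 0.31, -0.05, 0.15, -0.04 and -0.12 under the first 5 of these, in that order, and 0.11 to 0.22 over single libraries. At 1.5-fold 121 genes parted the tables. The sign of a median also turned by more than the spread between libraries for matrix proteases (-0.16) and Schwann cells (-0.25) with GC content and length removed. For ribosomal proteins it turned with length removed (0.24) and with both removed (0.13). Hedgehog (-0.19, GC content and length removed) and Hox (-0.22, equal implied length) were among the medians whose sign turned within that spread on at least 1 side. The difference between tissues is gubernaculum minus testis, so its sign does not give the direction within gubernaculum. By more than that spread, it was opposite in sign to the gubernaculum median for ribosomal proteins (0.35), lymphocytes (0.2) and mast cells (0.75). Within that spread on at least 1 side, the same held for CGRP (0.42), epididymal (0.83) and interferon genes (-0.18). It was also opposite for Acta1 (2.47), Ptp4a1 (0.17) and Nupl1 (0.19), each lower in INSL3-KI in both tissues. The cause was not tested.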
